A study of Mus musculus with 8 samples.

Results

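The genes described here make sterols and fatty acids. A list of 30 mouse genes was taken by name: enzymes of the path from acetyl-CoA to cholesterol, the regulators that sense sterols, and the enzymes that build, desaturate, elongate and activate fatty acids. Each gene was read by the probe that was brightest over the 8 arrays. A probe was found for 29 of the 30 by transcript accession, and all 29 were well above background on all 8 arrays, out of 20870 genes tested. Idi1, an isomerase of the mevalonate path, matched no probe and was not analysed here. Apart from the brightness of the probes, the rule uses no measured value.

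The cells were macrophages sorted from mouse breast tumours. PyMT cells, a breast cancer line named for the polyoma virus middle T oncogene, were implanted into the mammary tissue of syngeneic C57BL/6 hosts, which were either ATF3 KO (lacking the stress-induced transcription factor ATF3) or wild type (WT). About 21 days later, cells with both F4/80, a macrophage surface protein, and CD45, a leukocyte protein, were sorted. Both groups carried the same implanted tumour cells, and the genotype is that of the host. The labels do not say how the ATF3 allele was made, or what the age of the mice was. They give 4 KO and 4 WT samples, numbered 1 to 4 in each group, without saying what a number shares or whether the samples came from separate mice. The p-values therefore cover no more than the spread seen between these samples. Each was read on its own 1-colour array, with numbers 1 and 2 of both genotypes on one slide and numbers 3 and 4 on the other.

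Cholesterol is built from acetyl-CoA through mevalonate, squalene and lanosterol, and fatty acids are built from acetyl-CoA through malonyl-CoA. Both paths are under the SREBP transcription factors. These are held in the membrane of the endoplasmic reticulum by INSIG proteins when sterols are plentiful, and are cut free to enter the nucleus when sterols are scarce. SREBP2, from Srebf2, acts mostly on sterol genes, while SREBP1, from Srebf1, acts mostly on fatty acid genes. Macrophages that take up lipid lower this synthesis, and mammary epithelium and many breast tumour cells run it at a high rate.

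Because SREBP factors work at promoters, the windows of 250 bases before to 50 bases after the start of a gene were searched for 3 short motifs on both strands. These were TCACNCCA (a form of the sterol regulatory element), CCAAT (the NF-Y box) and CACGTG (an E-box, which reads alike on both strands). The first can share its end letters with either of the others. RefSeq windows (build GRCm38.p6) were given for 22 of the 29 genes. These genes had 27 windows, since some have more than 1 start. TCACNCCA was found in 4 of the 27, those of Acsl1, Hmgcs1, Msmo1 and Srebf2, and in 4.36% of all 32851 windows. CCAAT was found in 19 of the 27, from 18 genes, and in 37.4% of all windows. CACGTG was found in 5 of the 27, from 5 genes, and in 7.15% of all windows. A match is a description of the letters, not a binding site, and no binding was measured here. The windows of 4 genes are shown with the matches in capitals. Srebf2 and Insig1 are the sterol regulators that return below, and Hsd17b7 and Acsl3 are the genes with a window among those that differed most clearly between sample numbers.
Srebf2: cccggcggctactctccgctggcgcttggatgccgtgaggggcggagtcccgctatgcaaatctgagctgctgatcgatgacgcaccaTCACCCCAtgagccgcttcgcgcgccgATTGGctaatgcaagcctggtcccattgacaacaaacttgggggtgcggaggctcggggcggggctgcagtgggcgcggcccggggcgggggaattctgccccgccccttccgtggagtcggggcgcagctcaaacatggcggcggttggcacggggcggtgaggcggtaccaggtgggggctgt
Insig1: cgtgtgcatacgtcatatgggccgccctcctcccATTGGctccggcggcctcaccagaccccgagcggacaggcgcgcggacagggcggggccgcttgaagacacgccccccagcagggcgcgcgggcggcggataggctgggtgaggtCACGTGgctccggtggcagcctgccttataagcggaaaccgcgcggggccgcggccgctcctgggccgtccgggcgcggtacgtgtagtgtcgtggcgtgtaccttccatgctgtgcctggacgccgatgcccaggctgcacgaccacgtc
Hsd17b7: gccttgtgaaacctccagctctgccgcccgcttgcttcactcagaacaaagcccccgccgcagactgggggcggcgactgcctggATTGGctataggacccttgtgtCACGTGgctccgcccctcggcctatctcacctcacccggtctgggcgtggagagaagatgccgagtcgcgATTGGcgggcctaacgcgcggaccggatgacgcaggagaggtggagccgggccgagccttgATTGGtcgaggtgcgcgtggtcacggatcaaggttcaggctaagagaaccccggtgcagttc
Acsl3: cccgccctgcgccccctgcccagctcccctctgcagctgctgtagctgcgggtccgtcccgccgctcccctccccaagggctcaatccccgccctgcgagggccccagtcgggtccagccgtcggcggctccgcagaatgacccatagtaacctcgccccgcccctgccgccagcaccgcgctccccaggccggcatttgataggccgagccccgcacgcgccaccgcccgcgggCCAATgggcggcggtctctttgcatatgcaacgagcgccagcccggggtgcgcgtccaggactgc
The Srebf2 window (chr15:82147019-82147318, plus strand, Gene ID 20788) held 1 match of TCACNCCA and 1 of CCAAT. The Insig1 window (chr5:28071162-28071461, plus strand, Gene ID 231070) held 1 of CCAAT and 1 of CACGTG. The Hsd17b7 window (chr1:169969156-169969455, minus strand, Gene ID 15490) held 3 of CCAAT and 1 of CACGTG, and the Acsl3 window (chr1:78657575-78657874, plus strand, Gene ID 74205) held 1 of CCAAT. Reverse-strand matches of CCAAT read ATTGG.

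Levels are given as log2 of the processed signal relative to the array's 75th percentile, so that 0 is the level of that percentile, and 1 unit is a 2-fold step. That percentile was 619 to 926 in intensity units, which is 20.6 to 31.9 times the background around the spots, and 0 spots were saturated. The number of arrays limits the precision. Atf3 itself averaged 5.05 ± 0.31 in the samples labelled KO and 4.80 ± 0.21 in those labelled WT (SD, n = 4 each). It was thus not lower in the samples labelled KO. The sources used here do not say whether its probe falls in the deleted stretch, so it does not check the labels, and every direction compares samples by their labels. The F4/80 gene Adgre1 averaged 4.07 ± 0.54 in KO and 4.14 ± 0.60 in WT samples, and the CD45 gene Ptprc 4.42 ± 0.55 in KO and 4.52 ± 0.54 in WT samples (SD, n = 4 each). T cell markers had a mean level of −0.63 in KO and −1.09 in WT samples, and endothelial markers −2.65 in KO and −1.50 in WT samples. Their part in the differences between genotypes was not tested.

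No sterol or fatty acid gene passed the test between KO and WT macrophages. Of the 29 genes, 0 had a limma adjusted p under 0.05, as did 0% of the 20870 genes tested, and the smallest adjusted p of the 29 was 0.9999. At an unadjusted p under 0.05 there was 1 of 29, Insig1, which was lower in KO, beside 3.33% of all genes in either direction and 2.22% lower. By sign alone, 19 were lower in KO and 10 higher, while 51.4% of all genes were lower. The median difference, KO minus WT, was −0.057 for the 29 genes and −0.0086 for all genes. The differences were small: their median size was 0.13, against 0.18 for all genes, and 27 of 29 were under 0.25, with Cyp51 just inside at 0.2496. For 0 of 29 genes did the KO samples lie wholly apart from the WT samples, beside 2.12% of all genes. The balance of signs rested on single libraries, since without KO sample 3 it was 8 lower and 21 higher, and without WT sample 4 it was 7 lower and 22 higher. With normexp background correction it was 14 lower and 15 higher, where the median of all genes moved to −0.13.

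The precision of these differences depended on whether same-numbered samples were set against each other. The 95% interval of the difference reached 0.74 to either side at the median of the 29 genes, and excluded a 2-fold change either way for 17 of 29, beside 51.3% of all genes. With the sample number as a block in the fit, the median reach was 0.36 and the interval excluded a 2-fold change for 28 of 29 genes, beside 65% of all genes. The exception was Insig1. The blocked fit called 0 of 29 genes too (smallest limma adjusted p 0.673), with 0 at an unadjusted p under 0.05, beside 7.55% of all genes.

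**Figure D1:**
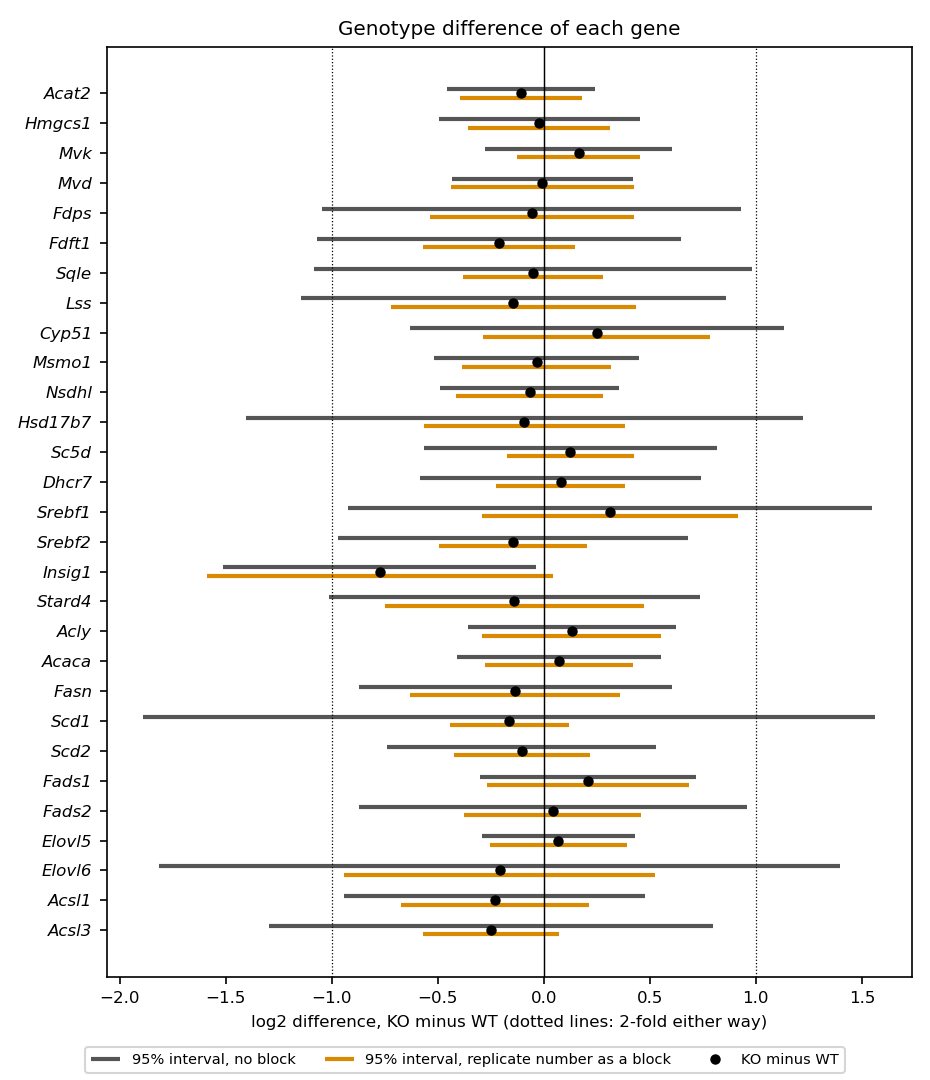
The log2 difference of each of the 29 genes, KO minus WT, is drawn as a point with its 95% interval from limma, without (grey) and with (orange) the sample number as a block, and dotted lines mark a 2-fold difference either way. Insig1 lies farthest from 0, at −0.77, and most intervals shrink with the block.

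Among the enzymes of the sterol path, 10 of 14 were lower in KO by sign and 4 were higher, and the differences lay between −0.21 and 0.25. Acat2, the cytosolic thiolase that joins acetyl-CoA units at the start of the path, measured 4.46, 4.30, 4.38 and 4.25 in KO samples 1 to 4, against 4.59, 4.50, 4.45 and 4.27 in WT samples 1 to 4. It was lower in KO in 4 of 4 same-numbered pairs, although the groups overlapped. Its log2 difference was −0.11 with a standard error of 0.15 (limma adjusted p = 0.9999), and its highest array was only 1.27-fold above its lowest. Hmgcs1, which makes HMG-CoA, differed by −0.021, with 4.24 ± 0.17 in KO and 4.26 ± 0.31 in WT samples (SD, n = 4 each).

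Mvk, the mevalonate kinase, measured −1.28, −1.38, −1.45 and −0.88 in KO samples 1 to 4, against −1.40, −1.48, −1.58 and −1.16 in WT samples 1 to 4. KO was the higher sample in 4 of 4 pairs, and KO sample 4 stood highest of all. The difference was 0.16 with a standard error of 0.19 (limma adjusted p = 0.9999). Mvd, a decarboxylase further along the path, differed by −0.0068 and Fdps, the synthase of farnesyl diphosphate, by −0.057. Cyp51, which removes a methyl group from lanosterol, measured −0.94, −0.02, −0.93 and −0.08 in KO samples 1 to 4, against −1.0, −0.79, −1.33 and 0.15 in WT samples 1 to 4. Its KO samples were higher in pairs 1 to 3 and lower in pair 4, and the difference of 0.25 had a standard error of 0.38 (limma adjusted p = 0.9999).

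The other enzymes of the path showed differences of the same order by their brightest probes. Fdft1, the squalene synthase, differed by −0.21, Sqle, the squalene epoxidase, by −0.052, and Lss, which closes the ring to lanosterol, by −0.14. Msmo1, a methylsterol oxidase, differed by −0.033, Nsdhl, which helps remove the methyl groups, by −0.067, and Hsd17b7, the ketoreductase of that step, by −0.092. A second, much dimmer Hsd17b7 probe gave −1.24 with a standard error of 0.89 (limma adjusted p = 0.9999). Sc5d, a desaturase, and Dhcr7, a reductase, act near the end of the path and differed by 0.12 and 0.080. Sc5d was higher in KO in 4 of 4 pairs. In all, 4 of 29 genes were lower in KO in 4 of 4 pairs, beside 9.67% of all genes, and 2 of 29 were higher in 4 of 4, beside 7.39%. The 4 were Acat2, Insig1, Scd1 and Acsl3, and the 2 were Mvk and Sc5d.

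By the brightest probe of each gene, the regulators Insig1 and Srebf1 gave the largest differences in size, with opposite signs. Insig1, which retains the SREBP complex in the endoplasmic reticulum, measured −3.16, −3.97, −3.46 and −2.54 in KO samples 1 to 4, against −2.69, −2.16, −2.79 and −2.40 in WT samples 1 to 4. KO was lower in 4 of 4 pairs, but KO sample 4 lay within the range of the WT samples. The means were −3.28 ± 0.60 in KO and −2.51 ± 0.28 in WT samples (SD, n = 4 each). The log2 difference was thus −0.77 (standard error 0.32, 95% interval −1.51 to −0.035). The limma unadjusted p was 0.0421 and the adjusted p 0.9999. With the sample number as a block the unadjusted limma p was 0.0585 and the adjusted p 0.673. Within the slide of numbers 1 and 2 the difference was −1.14, and within that of numbers 3 and 4 it was −0.41. It was −0.54 without KO sample 2.

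Insig1 has a second, dimmer probe, which gave the opposite sign. That probe measured −3.61, −3.61, −3.65 and −1.26 in KO samples 1 to 4, against −3.43, −4.34, −3.14 and −3.51 in WT samples 1 to 4. KO sample 4 stood far above the other 7. The difference by this probe was 0.57 with a standard error of 0.58 (limma adjusted p = 0.9999), so the direction of Insig1 depends on the probe.

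Srebf1, the gene of SREBP1, measured 0.84, 1.94, 0.07 and 2.24 in KO samples 1 to 4, against 0.92, 1.01, 0.19 and 1.72 in WT samples 1 to 4. Numbers 2 and 4 were higher in KO, numbers 1 and 3 slightly lower, and the groups overlapped. The difference was 0.31 with a standard error of 0.53 (limma adjusted p = 0.9999), and it ranged between −0.011 and 0.71 as each sample was left out. Srebf2, the gene of SREBP2, measured 3.27, 3.24, 2.37 and 3.18 in KO samples 1 to 4, against 3.47, 3.41, 2.23 and 3.53 in WT samples 1 to 4. Sample 3 was the lowest of its group in both genotypes. The Srebf2 difference was −0.15 with a standard error of 0.36 (limma adjusted p = 0.9999). Stard4, a sterol transfer protein, differed by −0.14, with −1.11 ± 0.38 in KO and −0.97 ± 0.71 in WT samples (SD, n = 4 each).

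Of the 3 genes that build palmitate, 1 was lower in KO and 2 were higher. Acly, which makes cytosolic acetyl-CoA from citrate, measured 0.57, 0.43, 0.65 and 0.42 in KO samples 1 to 4, against 0.41, −0.12, 0.73 and 0.52 in WT samples 1 to 4. WT sample 2 was the lowest of the 8. The Acly difference was 0.13 with a standard error of 0.21 (limma adjusted p = 0.9999). Acaca, the carboxylase that makes malonyl-CoA, measured −3.22, −3.0, −3.11 and −2.84 in KO samples 1 to 4, against −3.40, −2.83, −3.40 and −2.83 in WT samples 1 to 4. KO was higher in pairs 1 and 3 and lower in pairs 2 and 4. The Acaca difference was 0.070 with a standard error of 0.21 (limma adjusted p = 0.9999), and its dimmer probes gave −0.13 and 0.46. Fasn, the fatty acid synthase, measured 0.68, 0.88, 0.45 and 1.45 in KO samples 1 to 4, against 1.12, 1.38, 0.26 and 1.25 in WT samples 1 to 4. KO was lower in pairs 1 and 2 and higher in pairs 3 and 4, which are the pairs of the other slide. The Fasn difference was −0.13 with a standard error of 0.32 (limma adjusted p = 0.9999), with −0.47 within the slide of numbers 1 and 2 and 0.20 within that of numbers 3 and 4.

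The second Fasn probe was dim, at −3.67, −2.20, −4.69 and −3.28 in KO samples 1 to 4, against −4.63, −4.65, −5.11 and −2.88 in WT samples 1 to 4. KO was higher in pairs 1 to 3, most of all in pair 2. The difference by this probe was 0.86 with a standard error of 0.63 (limma adjusted p = 0.9999). Probes of the same gene thus often differed in direction: of 14 genes with at least 2 probes tested, 7 had all probes on one side and 7 had a probe of the opposite sign. In 4 of the 7, Insig1, Fasn, Acaca and Cyp51, probes of opposite sign stood over 0.5 apart. The 3 Cyp51 probes gave 0.25, 0.36 and −0.17, from the brightest to the dimmest.

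**Figure D2:**
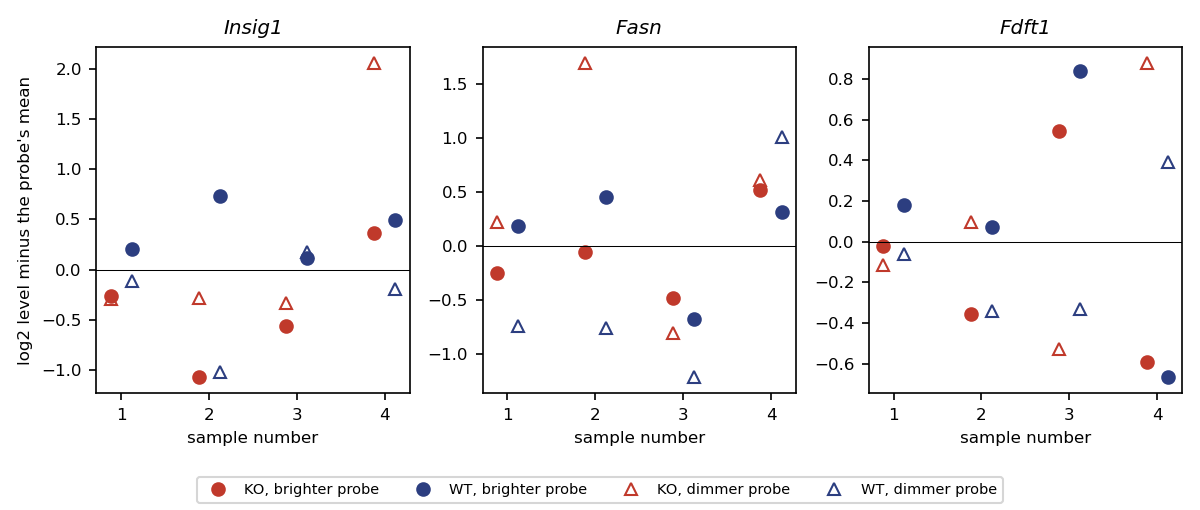
Levels of the brighter (filled circles) and dimmer (open triangles) probes of Insig1, Fasn and Fdft1 in KO (red) and WT (blue) samples, by sample number, as log2 minus the probe's own mean over the 8 arrays. The dimmer Insig1 probe stands out in KO sample 4 and the dimmer Fasn probe in KO sample 2, while the Fdft1 probes run in opposite directions over numbers 3 and 4.

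Among the 4 desaturases, all on chromosome 19 in the RefSeq table, 2 were lower in KO and 2 higher. Fads1, which desaturates polyunsaturated fatty acids, measured 1.56, 2.15, 2.13 and 2.09 in KO samples 1 to 4, against 1.69, 1.48, 2.16 and 1.77 in WT samples 1 to 4. KO sample 1 stood below the other KO samples but within the range of the WT samples. The Fads1 difference was 0.21 with a standard error of 0.22 (limma adjusted p = 0.9999). Its partner Fads2 differed by 0.042, and the stearoyl-CoA desaturases Scd1 and Scd2, which make monounsaturated fatty acids, by −0.16 and −0.10. Of the elongases, Elovl5, which acts on polyunsaturated chains, differed by 0.069 and Elovl6, which extends palmitate, by −0.21. Acsl1, an acyl-CoA synthetase that activates long-chain fatty acids, measured 2.57, 2.31, 3.09 and 1.99 in KO samples 1 to 4, against 3.11, 2.24, 3.05 and 2.47 in WT samples 1 to 4. KO was clearly lower in pairs 1 and 4 and slightly higher in pairs 2 and 3. The Acsl1 difference was −0.23 with a standard error of 0.31, and that of its relative Acsl3 was −0.25 with a standard error of 0.45 (limma adjusted p = 0.9999 for each).

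The samples differed far more by their number than by genotype. The number accounted for a median of 85.8% of a gene's sum of squares over the 8 arrays in the 29 genes, against 66.3% in all genes, and genotype for 2.39% against 4.93%. The degrees of freedom alone would give 42.9% to the number and 14.3% to genotype. The share of the number was over 80% in 20 of the 29 genes and in 32.2% of all genes. Between the lowest and the highest array, 18 of 29 genes spanned more than 2-fold, beside 65.4% of all genes, so the spread itself was not wider than usual. These shares, the test and the genes named next for their pattern over the numbers were chosen after their values were seen.

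**Figure D3:**
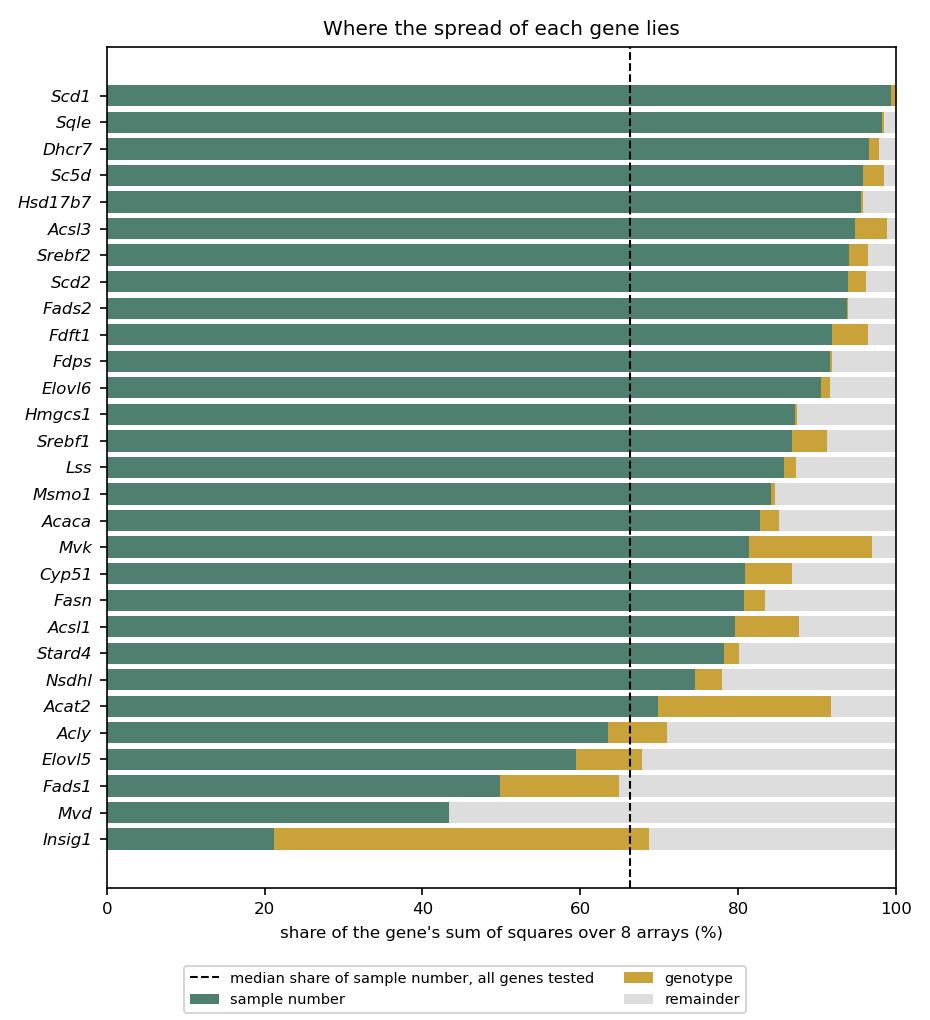
Bars give, for each of the 29 genes, the share (%) of its sum of squares over the 8 arrays that goes with the sample number (green), with genotype (gold) and with neither (grey), and the dashed line is the median share of the number in all genes tested, 66.3%. Scd1 is at the top with 99.3% for the number, and Insig1, at 21.2%, is the gene with the smallest share.

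The sample number was tested with limma's moderated F test with genotype in the fit. It called 4 of 29 genes, beside 7.21% of all genes, and 16 of 29 had an unadjusted p under 0.05, beside 29.5%. The 4 genes were Scd1, Acsl3, Sqle and Hsd17b7. With only 1 sample of each genotype per number, few calls outlasted the loss of 1 sample, here or across all genes. Without KO sample 2 or without WT sample 2 the test called 1 of 29, Scd1 in both cases, beside 3.12% and 3.13% of all genes. Without any one of the other 6 samples it called 0 of 29, beside 0% of all genes. Within the slides, with the slide in the fit, it called 7 of 29, beside 10.1% of all genes. Other processing settings gave between 1 call, with normexp, beside 1.71% of all genes, and 14 calls, with a trended and robust variance prior, beside 19.1%.

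Scd1 showed the pattern most plainly. It measured 3.68, 4.46, 2.21 and 4.86 in KO samples 1 to 4, against 3.89, 4.62, 2.31 and 5.04 in WT samples 1 to 4. Sample 3 was lowest and sample 4 highest in both genotypes, and same-numbered samples lay at most 0.21 apart. The highest array was 7.13-fold above the lowest (limma F test over sample numbers, adjusted p = 0.0158). Leaving out 1 sample at a time moved that adjusted p between 0.0408 and 0.154. Scd2 had the same order at a smaller range, with 5.04, 5.24, 4.84 and 5.57 in KO samples 1 to 4, against 5.06, 5.47, 4.78 and 5.80 in WT samples 1 to 4.

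Sqle measured 0.50, 1.03, 0.26 and 1.86 in KO samples 1 to 4, against 0.69, 1.23, 0.20 and 1.73 in WT samples 1 to 4. The order of the numbers was the same as for Scd1, and the adjusted p of the limma F test was 0.0392. Hsd17b7 measured −0.67, 0.42, −0.50 and 0.85 in KO samples 1 to 4, against −0.96, 0.36, −0.37 and 1.43 in WT samples 1 to 4. Here numbers 1 and 3 were both low and number 4 was again highest, with an adjusted p of 0.0462 in the limma F test. Its second probe, much dimmer, did not follow this order, with its highest mean at number 2. Acsl3 measured −0.57, 0.42, −0.22 and 0.92 in KO samples 1 to 4, against −0.27, 0.52, −0.06 and 1.36 in WT samples 1 to 4. Its order was that of Hsd17b7, with an adjusted p of 0.0364 in the limma F test.

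Elovl6 had the second widest range, 5.60-fold, and did not pass the F test (limma adjusted p = 0.0703). It measured −1.0, 0.73, −1.25 and 1.23 in KO samples 1 to 4, against 0.12, 0.38, −1.12 and 1.15 in WT samples 1 to 4. Numbers 3 and 4 were again the lowest and the highest, while the samples numbered 1 lay 1.12 apart. Srebf1 spanned 4.49-fold in the same order, and its limma F test adjusted p was 0.0822.

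Across the 29 genes, by the brightest probe of each, number 3 was often low and number 4 often high. The samples numbered 3 were the 2 lowest of the 8 in 10 of 29 genes, beside 11.2% of all genes, and the samples numbered 4 were the 2 highest in 14 of 29, beside 10.9%. With the scaling by bright probes, quantile normalization, normexp or the deposited table these counts were 10 to 12 and 11 to 15. Both held for 7 genes, beside 5.02% of all: Fdps, Sqle, Dhcr7, Scd1, Scd2, Fads2 and Elovl6. The reverse was rarer, with the samples numbered 3 highest in 2 genes, Fdft1 and Acly, beside 14.3% of all genes. The samples numbered 4 were the lowest in 2, Acat2 and Fdft1, beside 13.8%. By role, the samples numbered 4 were the 2 highest for 9 of 14 sterol enzymes and 3 of 4 desaturases. The same held for 1 of 2 elongases and 1 of 2 acyl-CoA synthetases. It held for 0 of 4 sensing and transport genes and 0 of 3 genes of palmitate synthesis, beside 10.9% of all genes. By the mean of each number, however, number 4 was highest for Srebf1, Insig1, Stard4, Acaca and Fasn, though not for Srebf2 or Acly. The lists are too small to set one role against another.

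**Figure D4:**
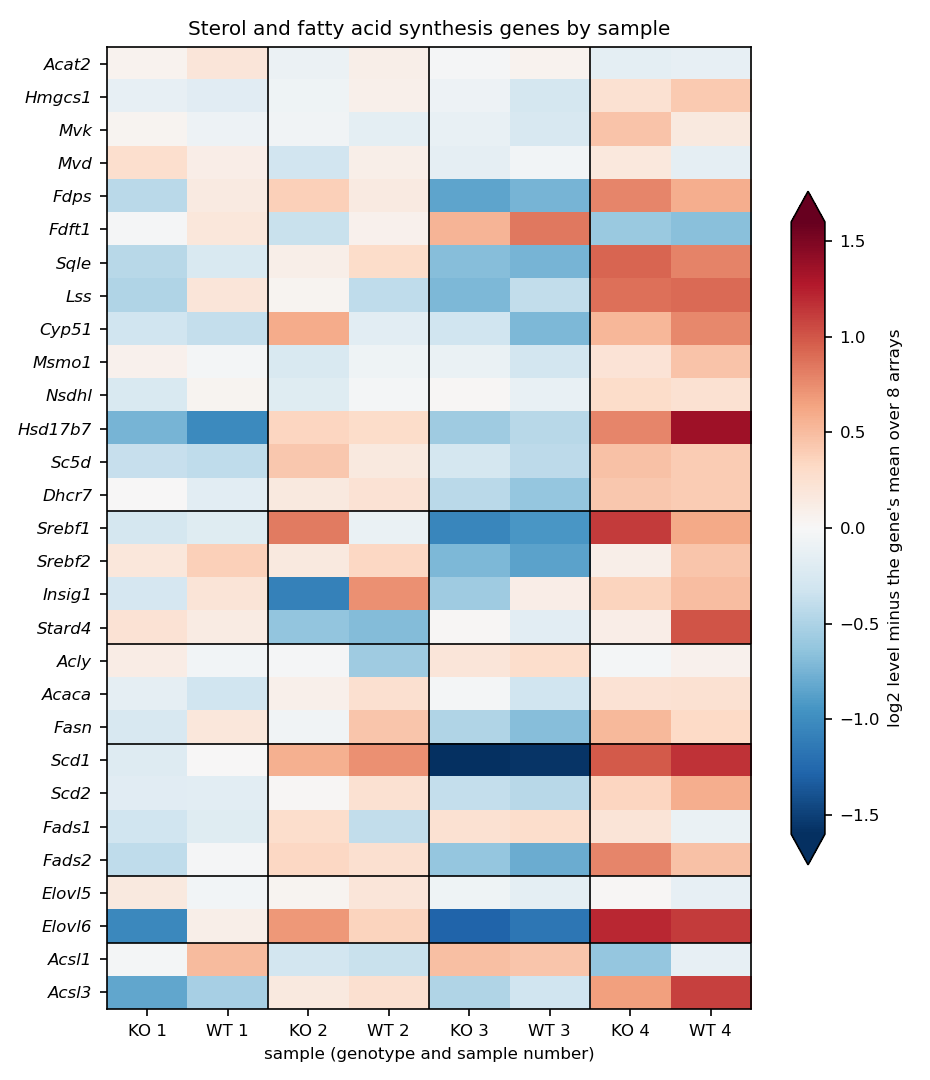
Each row is a gene and each column a sample, KO left of WT within each sample number, and the colour is the log2 level minus the gene's mean over the 8 arrays (red above, blue below). Same-numbered KO and WT columns look alike, with number 3 mostly blue and number 4 mostly red, and Fdft1 runs the other way.

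Fdft1 had the reverse pattern at both numbers by its brighter probe, which measured 2.09, 1.76, 2.66 and 1.52 in KO samples 1 to 4, against 2.29, 2.19, 2.96 and 1.45 in WT samples 1 to 4. Number 3 was highest and number 4 lowest in both genotypes. Its dimmer probe measured 0.27, 0.48, −0.15 and 1.26 in KO samples 1 to 4, against 0.32, 0.04, 0.05 and 0.77 in WT samples 1 to 4. By that probe number 4 was highest in both genotypes and number 3 lowest in KO. The 2 probes thus give opposite orders for numbers 3 and 4, and the gene's pattern over the numbers is uncertain. Other genes also had probes that differed in this way. Of the 14 genes with at least 2 probes tested, all probes had their lowest mean at the same number in 5. Their highest mean was at the same number in 8.

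Marker genes of other cells moved with the same numbers. Mammary epithelial markers had mean levels of 0.26, 1.47, −0.91 and 2.44 in KO samples 1 to 4, against 0.26, 1.28, −0.76 and 1.90 in WT samples 1 to 4, over 14 of 15 genes tested. The limma F test over sample numbers called 7 of these 14, beside 7.21% of all genes. The samples numbered 3 were the 2 lowest in 10 of the 14, beside 11.2% of all genes, and those numbered 4 the 2 highest in 9, beside 10.9%. Epcam, an epithelial adhesion gene, measured 1.75, 2.70, −0.05 and 3.41 in KO samples 1 to 4, against 1.61, 2.65, −0.08 and 3.18 in WT samples 1 to 4 (limma F test adjusted p = 0.0158). The order of the numbers for Epcam was that of Scd1. Fibroblast markers had mean levels of 1.08, 0.78, −0.44 and 2.37 in KO samples 1 to 4, against 0.65, 1.38, −0.59 and 1.69 in WT samples 1 to 4, over 7 of 8 genes. The samples numbered 3 were the 2 lowest in 7 of these 7, beside 11.2% of all genes. Those numbered 4 were the 2 highest in 6, beside 10.9%. The limma F test called 1 of the 7, beside 7.21% of all genes. The pattern was thus not particular to the epithelial markers.

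Macrophage markers ran the other way, with mean levels of 4.36, 3.97, 4.67 and 3.48 in KO samples 1 to 4, against 4.29, 4.14, 4.70 and 3.46 in WT samples 1 to 4, over 11 of 12 genes. Number 3 was thus highest and number 4 lowest in both groups. The limma F test called 2 of these 11 genes, beside 7.21% of all genes, and 11 had an unadjusted p under 0.05, beside 29.5%. The samples numbered 3 were the 2 highest in 6 of the 11, beside 14.3% of all genes. Those numbered 4 were the 2 lowest in 10, beside 13.8%. Adipocyte markers, for cells that also make fatty acids, had mean levels of −4.53 to −4.0 in KO and −4.33 to −3.87 in WT samples over the 5 of 10 genes tested. Over the numbers the limma F test called 0 of the 5, beside 7.21% of all genes. An unadjusted p under 0.05 was found for 2, Plin1 and Lipe, beside 29.5% of all genes. The 5 tested were Plin1 and Lipe, well above background on 8 arrays, Plin4 on 7, Adipoq on 6 and Cfd on 5. Lep and Aqp7 were so on 0 arrays, Retn on 1 and Cidec on 2, and these were not tested. Mean levels of neutrophil markers ranged from −2.84 to 1.18 in KO and from −2.12 to 1.09 in WT samples, with number 3 lowest and number 1 highest in both. The limma F test called 4 of the 7 neutrophil markers tested, beside 7.21% of all genes, and 7 had an unadjusted p under 0.05, beside 29.5%. It called 2 of 10 T cell markers and 0 of 8 endothelial markers. In sorted bulk RNA, fewer cells of a type and less RNA per cell cannot be told apart. The part of these marker levels in the pattern of the sterol and fatty acid genes was not tested.

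**Figure D5:**
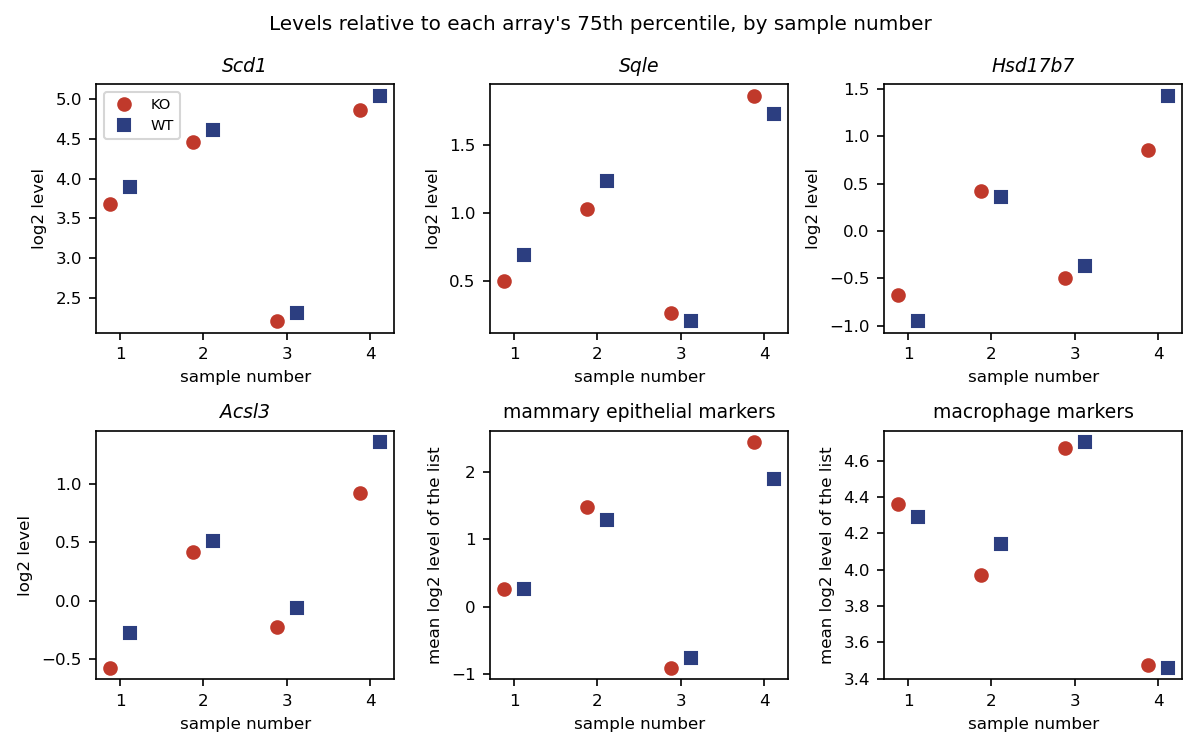
Log2 levels of Scd1, Sqle, Hsd17b7 and Acsl3, and mean log2 levels of the mammary epithelial and macrophage marker lists, in KO (red circles) and WT (blue squares) samples by sample number. Number 4 is highest for the 4 genes and the epithelial markers and lowest for the macrophage markers, and KO and WT samples of a number lie close together.

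Other genes of the sterol path did not pass the test between genotypes either. Of 20 listed, 19 were tested: 9 were lower in KO and 10 higher, and 0 were called. Npc1, which exports cholesterol from lysosomes, differed by −0.34.

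Among 15 other fatty acid genes tested of 19 listed, 5 were lower in KO and 10 higher, 0 were called, and 1 had an unadjusted p under 0.05. Acacb, the carboxylase of the mitochondrial surface, measured −3.30, −1.46, −3.98 and −2.21 in KO samples 1 to 4, against −4.44, −5.06, −4.65 and −3.48 in WT samples 1 to 4. KO was higher in each pair, though KO sample 3 lay below WT sample 4. The difference was 1.67 with a standard error of 0.59 (limma adjusted p = 0.9999). Of the 5 adipocyte markers tested, 3 were lower in KO and 2 higher, with a median difference of −0.30. They went both ways, with Adipoq at 1.77 and higher in KO in 4 of 4 pairs, and Plin4 at −0.83 and lower in 4 of 4 (limma adjusted p = 0.9999 for each). Adipoq was well above background on 4 KO but only 2 WT arrays, and Plin4 on 3 KO and 4 WT arrays. Both differences were thus measured near the background. The part of the adipocyte markers in the Acacb values was not tested. Elovl7, an elongase of saturated chains, differed by 0.41 with a standard error of 0.90.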

How the data were processed

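Total RNA of 8 sorted macrophage samples was amplified from 250 ng and labelled with Cy3, per the labels' protocols. The authors read 1-colour Agilent mouse arrays and obtained an intensity for each spot, as a background-corrected processed signal, from Agilent Feature Extraction 10.7.1.1, per the file headers, whereas the submitters' processing notes name version 10.5. The headers name build mm9, of which no coordinates are printed. A table of intensity values was deposited too, with column medians of 92 to 94 and the same maximum of 345156 in every column. Within each array its ranks followed those of the median signal (Spearman correlation at least 0.9999 over 40928 probes), so its direction is that of the arrays and its values are on a linear scale without centring. How it was normalized is not stated, and it served as an alternative only.

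Spots that were controls or marked as outliers were dropped. The log2 processed signal was averaged over a probe's spots and taken relative to the 75th percentile of its array. Accessions without version named 25097 of 41174 probes through a RefSeq table of GRCm38.p6. The brightest probe stood for a gene, and a probe was tested if it stood well above background on 4 or more of the 8 arrays, 20870 genes in all, 13452 of them with a symbol. KO was compared with WT with limma 3.58.1 (lmFit and eBayes, under R 4.3.3) in two-sided tests, and p-values were adjusted by Benjamini-Hochberg over all genes tested. The fit was tested on simulated data.

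Same-numbered KO and WT samples deviated together from their group means, with correlations across genes of 0.30, 0.14, 0.70 and 0.51 for numbers 1 to 4, all above the limit of 0.1. The numbers were therefore treated as pairs in the blocked fit. The pairing comes from the labels' numbers and this check alone. Of 12 pairs of different numbers, 2 also passed the limit: KO sample 4 with WT sample 2 at 0.15, and KO sample 2 with WT sample 4 at 0.14. The samples numbered 2 were no more alike than these, so the check gives little ground for pairing number 2. The F test of the number (3 degrees of freedom, 2 within slides) and the fits without both samples of a number were added after seeing the data. For that test 38 genes with a missing array were dropped, none of them among the 29.

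The genes, lists and tests were chosen with earlier results of these data known. Named in full are the 8 genes with the smallest unadjusted p, those with tested probes of opposite sign more than 0.5 apart, and Srebf1, Srebf2 and Insig1. Of the other pathway genes, those with an unadjusted p under 0.05 and the 2 largest differences per list are named, except for results that are not reported here. Atf3, Adgre1 and Ptprc serve as checks. Scd1, Scd2, Sqle, Hsd17b7, Acsl3, Elovl6, Fdft1, Epcam and the genes of the closing section were given by sample after their values were seen. Alternatives were normexp background correction (offset 50, on the median signal), scaling by the median of bright probes, quantile normalization, other filters on dim probes, the deposited table, the replicate block, the slide as a block or alone, array weights, trended and robust eBayes, other probes of a gene, and each sample left out.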

Additional observations from a re-analysis of the deposited data

Results flagged for a closer look

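Of 58 groups of 4 samples checked for a single distant sample, by Dixon's 95% critical value for the gap to the nearest sample over the group's range, 4 had one. Chance gives about 1 in 20 such groups. Srebf2 had one in each genotype, and in both it was sample 3: the level was 2.37 in KO sample 3, where the other KO samples lay between 3.18 and 3.27, and 2.23 in WT sample 3, where the other WT samples lay between 3.41 and 3.53. Hmgcs1 measured 4.49 in KO sample 4, above the other KO samples at 4.12 to 4.18, and WT sample 4 was likewise the highest of its group. Fads1 measured 1.56 in KO sample 1, below the other KO samples at 2.09 to 2.15. The part of marker levels or slide in these values was not tested.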

How the results depend on the processing

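The count of genes called between genotypes was 0 under each alternative, except that leaving out 1 sample gave 0 to 1, the 1 without KO sample 1. Of the 29 genes, 0 were called throughout. Without both samples of a number, settings added after the data were seen, 15 to 20 of the 29 were lower in KO. The fit with the replicate block leaves the differences themselves unchanged, so its median of −0.057 for the 29 genes is no separate check. In that fit no call changed. Of 599 differences of single genes under the alternatives, 512 had the sign of the reported value and 87 the opposite one, and for 3 genes none turned. The block fits, the trended and robust prior and the filters on dim probes leave each difference unchanged, so their signs could not turn. The 512 therefore overstates how stable the signs were. The cause of the turned signs was not tested. With normexp background correction, which shifted all genes by a median of −0.13, the turned values were 0.13 for Acat2, 0.19 for Hmgcs1, −0.15 for Mvk, 0.14 for Mvd, 0.13 for Fdps, 0.086 for Sqle, 0.071 for Msmo1, 0.0099 for Srebf2, −0.48 for Acaca, 0.11 for Scd2 and −0.030 for Fads2. In the deposited table they were 0.041 for Hmgcs1, 0.051 for Mvd, 0.023 for Fdps, 0.011 for Sqle and −0.045 for Fads2. With array weights they were 0.049 for Hmgcs1, 0.065 for Sqle, 0.021 for Msmo1, 0.18 for Hsd17b7 and 0.013 for Scd1. Within slide 1 (numbers 1 and 2) they were 0.17 for Hsd17b7, 0.082 for Stard4 and −0.15 for Fads2, and within slide 2 (numbers 3 and 4) 0.0095 for Hmgcs1, 0.10 for Mvd, 0.054 for Fdps, 0.096 for Sqle, 0.093 for Nsdhl, −0.090 for Acly and 0.20 for Fasn. By the second probe they were 0.17 for Fdft1, 0.042 for Lss, 0.57 for Insig1, 0.25 for Stard4, −0.13 for Acaca and 0.86 for Fasn, and by the third −0.17 for Cyp51 and 0.28 for Stard4. Leaving out each sample in turn gave, KO minus WT, Acaca −0.025 to 0.17, Acly −0.036 to 0.25, Acsl3 −0.51 to 0.076, Dhcr7 −0.11 to 0.24, Elovl6 −0.64 to 0.19, Fads2 −0.21 to 0.26, Fasn −0.38 to 0.0034, Fdft1 −0.47 to 0.033, Fdps −0.33 to 0.21, Hmgcs1 −0.12 to 0.11, Hsd17b7 −0.45 to 0.35, Lss −0.46 to 0.13, Msmo1 −0.14 to 0.11, Mvd −0.099 to 0.096, Nsdhl −0.18 to 0.0031, Sc5d −0.011 to 0.28, Scd1 −0.71 to 0.37, Scd2 −0.27 to 0.071, Sqle −0.37 to 0.20, Srebf1 −0.011 to 0.71, Srebf2 −0.46 to 0.070 and Stard4 −0.39 to 0.17. For the differences over sample number, the count called among the 29 genes was 12 with array weights, beside 15.7% of all genes, 10 in the deposited table (10.6%), 14 with a trended and robust prior (19.1%), 1 without a filter on dim probes (1.26%), 1 with normexp (1.71%), 7 within slides (10.1%), 12 among probes well above background on all 8 arrays (15.7%), and 0 to 1 with a sample left out (0% to 3.13%).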

Other observations

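Other genes of fatty acid synthesis also differed by sample number, in the same test added after the data were seen. Of the 15 other fatty acid genes it called 4, beside 7.21% of all genes: Me1, Acss2, Dgat1 and Thrsp. Of the 19 other sterol genes it called 1. The list of 15 did not share one direction. The samples numbered 4 were the 2 highest in 4 genes and the 2 lowest in 4, beside 10.9% and 13.8% of all genes. Among the 19 sterol genes these counts were also 4 and 4. Me1, the malic enzyme that supplies NADPH for fatty acid synthesis, spanned 11.7-fold, with 0.76, 1.92, −0.62 and 2.78 in KO samples 1 to 4, against 0.84, 2.07, −0.47 and 2.93 in WT samples 1 to 4 (limma F test adjusted p = 0.0158). Thrsp, a lipogenic protein abundant in mammary gland and adipose tissue, spanned 10.9-fold, with 1.40, 3.27, 0.38 and 3.84 in KO samples 1 to 4, against 1.88, 2.67, 0.54 and 2.97 in WT samples 1 to 4. In both Me1 and Thrsp number 3 was lowest and number 4 highest in both genotypes. Dgat1, which makes triglyceride, did not follow this order: it was highest in sample 1 of both genotypes, at 2.40 in KO and 2.36 in WT.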
